A study of Mus musculus with 2 samples.

Results

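The genes described here make the proteins that recognise and remove introns: the SR proteins, the heterogeneous nuclear ribonucleoproteins (hnRNPs), the SF3a and SF3b complexes and the proteins of the small nuclear ribonucleoproteins (snRNPs). They were taken by name, as every protein-coding gene of GENCODE mouse release M21 whose symbol begins with Srsf and a digit, Hnrnp, Sf3a or Sf3b and a digit, or Snrp. This gave 52 genes of the 55536 in the table: 11 SR protein genes, 20 hnRNP genes, 9 SF3a and SF3b genes, 8 genes of the Sm core ring and 4 genes of proteins specific to the U1 or U2 snRNP. RNA was sequenced from 2 mammary tumors of MMTV-PyVT mice, which carry the polyoma virus middle T antigen under a mammary tumor virus promoter that is active mainly in mammary epithelium. The DMSO tumor was exposed to the solvent dimethyl sulfoxide alone, and the C3G tumor to cyanidin-3-glucoside, a plant anthocyanin. Dosing began at ductal hyperplasia and tumors were collected at a set tumor burden. Age, dose and the number of mice per library are not given in the sources used here. The transgene stands in both groups, and there is no normal mammary gland among the 2 samples.

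Splicing begins when the U1 snRNP pairs with the start of an intron and the U2 snRNP, held in place by SF3a and SF3b, pairs with its branch point. Each of these snRNPs is built on a ring of Sm proteins, to which a few proteins of its own are added. SR proteins bind exons and help the snRNPs settle at nearby splice sites, whereas hnRNPs coat the transcript and often turn splice sites off, so that the balance of the 2 families helps to set which exons are kept. In mammary epithelium Srsf1 is known as a gene whose overexpression can transform cells, and Hnrnpa1 and Hnrnpa2b1 are known for steering the splicing of pyruvate kinase in dividing cells.

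All 52 genes were measured, none with a mean under 1 TPM (a read count scaled by gene length and then to the same total in each library). They rested on a median of 1758 reads each with DMSO and 2651 with C3G. Together they made up 0.670% of all TPM with DMSO, a sum of 6699 TPM, and 0.740% with C3G, a sum of 7399 TPM. Each group has 1 library, so there is no replicate check and no test of any gene. The interval after a ratio covers counting error only, at the 95% level, and treatment and individual mouse cannot be told apart. In what follows, a pair of TPM values is given with DMSO first and C3G second. In these bulk samples, fewer cells of a type and less RNA per cell cannot be told apart either.

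The levels of the splicing genes were close in the 2 tumors, and no member reached a 2-fold difference. A gene was called by size when its higher level was at least 5 TPM and its log2 ratio, log2((C3G TPM + 1)/(DMSO TPM + 1)), passed the fold in question. The low-level gene Srsf12 did not reach 5 TPM, which left 51 genes. Of these, 0 were past 2-fold, where 7.4% of the 12780 genes of the table at that level were (3.1% higher in the C3G tumor and 4.3% lower). At 1.5-fold 1 member was called, Snrpf, which was higher in the C3G tumor, against 20.6% of all genes (11.5% higher and 9.15% lower). At 1.25-fold, a threshold added after the values were seen, 12 members were called against 46.7% of all genes. Of those 12, 10 were higher in the C3G tumor (30.2% of all genes) and 2 lower (16.5%). When log2 ratios were centred on genes with a mean of at least 10 TPM, which lowers every value by 0.12, the split was 8 higher and 4 lower. The shares of all genes given here are before centring, so that split has no matching share beside it.

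Strongly expressed genes differ less in general, so the same counts were taken over genes with a mean of at least 50 TPM, which 41 members reached. None of the 41 was past 2-fold, against 4.22% of 3036 genes at that level (0.889% higher with C3G and 3.33% lower). At 1.5-fold it was 1 member, Snrpf, against 13.9% of genes (5.8% higher and 8.14% lower). At 1.25-fold 8 were higher, against 21.4% of genes, and 2 lower, against 17.2%, or 10 in all against 38.6%. The spread of these members was also narrower, on the lower side. Between the lower and the upper quartile, the log2 ratios of the 41 members ran from -0.05 to 0.28. Those of the 3036 genes ran from -0.20 to 0.28. For all 52 members the same range was -0.05 to 0.28, and for all genes with a mean of at least 1 TPM it was -0.22 to 0.38.

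The median log2 ratio of the 52 genes was 0.10, the same to 2 decimals as the 0.10 of all 17468 genes with a mean of at least 1 TPM. Among genes with a mean of at least 50 TPM, the median was 0.096 for the 41 members and 0.051 for all 3036 genes. By sign, 33 of the 52 members stood above 0 and 19 below, while 58.9% of all genes stood above 0. After centring, the median of the 52 was -0.021, with 25 members above 0 (48.5% of all genes) and 27 below (51.5%). With library-wide trends on gene length and GC content removed, the median was 0.052 for the 52 members and 0.12 for the 17468 genes. The counting intervals were narrow for such abundant transcripts, reaching 1.06-fold to either side at the median. In 29 of the 51 genes the interval of the ratio lay wholly above 1 (42.2% of all genes) and in 8 wholly below 1 (20.7%). These shares are not matched for depth. All genes with a higher level of at least 5 TPM had a median of 387 reads with DMSO, and their intervals reached 1.14-fold. The intervals were also taken before centring. Such an interval says only that the 2 libraries differed by more than counting noise.

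**Figure D1:**
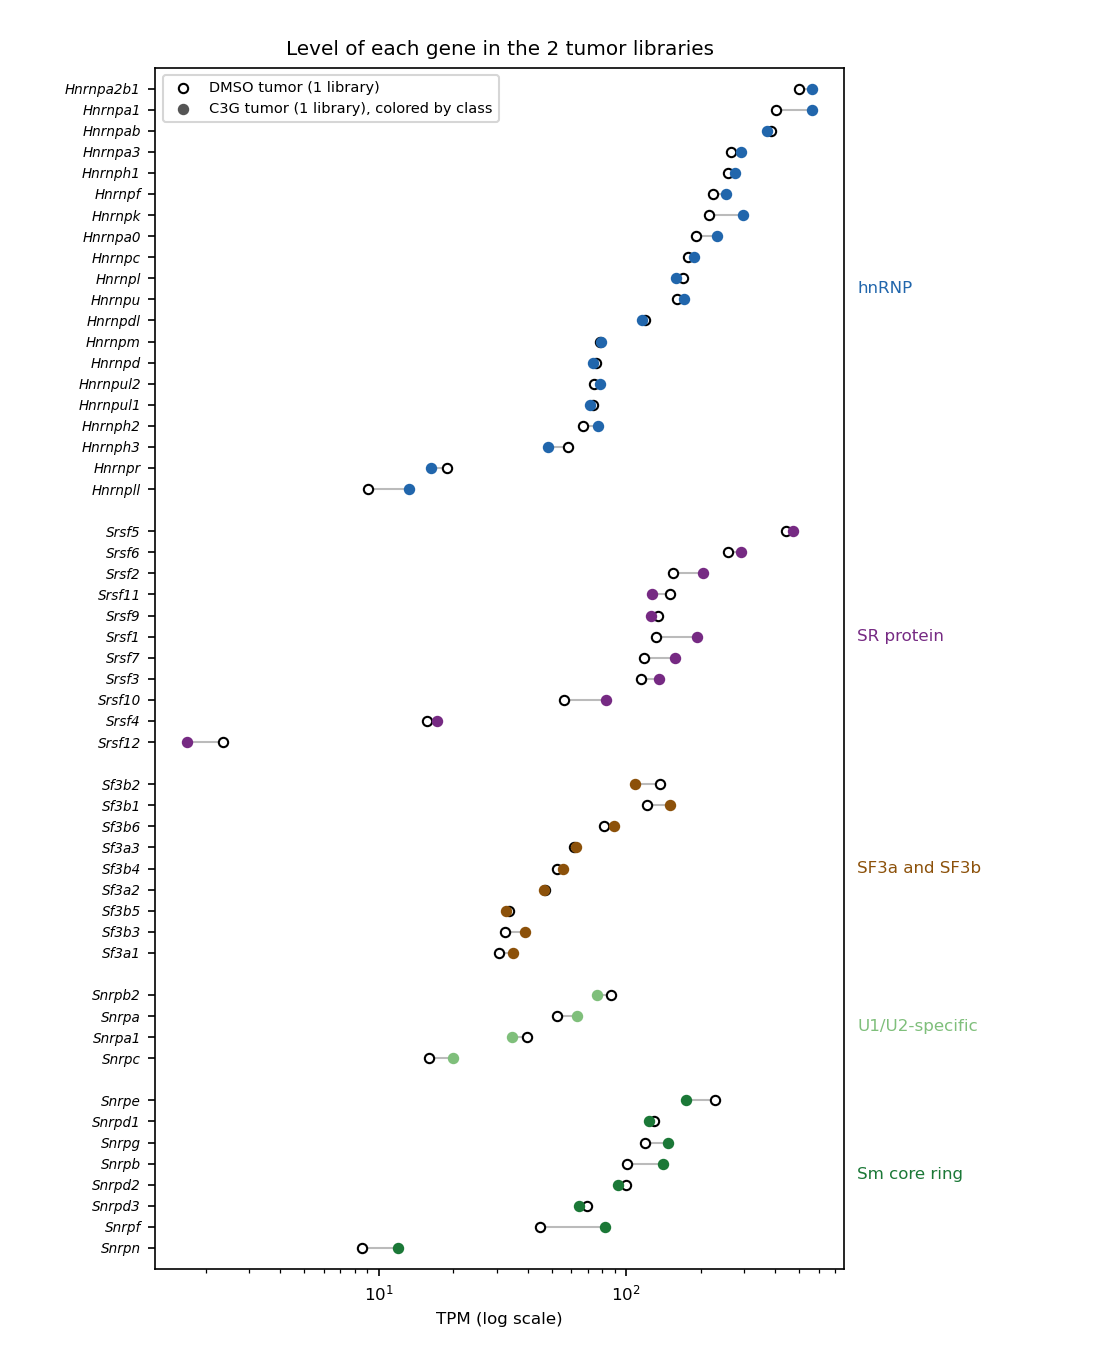
Level of each of the 52 genes in TPM (log axis) in the DMSO tumor (open circles) and the C3G tumor (filled circles, colored by class), 1 library each. The order of levels is nearly shared, from Hnrnpa2b1 at 501 and 562 TPM down to Srsf12 at 2.34 and 1.68 TPM.

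The Sm core ring is made of 7 kinds of Sm protein that close around the small nuclear RNA. Its genes had the widest range of log2 ratios of the 5 classes, from -0.38 to 0.86, with 4 above and 4 below 0. Snrpe, which makes the Sm protein E (mm10 chromosome 1, 133603871 to 133610291), was the most abundant of them, at 228 TPM with the solvent and 175 TPM with C3G. It was 1.30-fold lower in the C3G tumor (1.21 to 1.40), the lowest log2 ratio among the members with a mean of at least 5 TPM. With the length and GC trends removed, its log2 ratio was -0.27, short of the 1.25-fold call. Snrpf, for the Sm protein F that sits beside E in the ring (chromosome 10, 93583029 to 93589706), stood at 44.7 and 81.8 TPM. Its ratio of 1.83 (1.52 to 2.21) was the highest of all 52 genes. Snrpg, for the Sm protein G, stood at 120 and 147 TPM, a ratio of 1.23 (1.12 to 1.34).

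These 3 proteins join the ring together, and their transcripts stood in other proportions in the 2 libraries. The level of Snrpe was 5.10 times that of Snrpf with DMSO and 2.14 times with C3G. Against Snrpg, Snrpe was at 1.91 times the level with DMSO and 1.19 times with C3G. Snrpb, for the Sm proteins B and B' (chromosome 2, 130171414 to 130179403), was 1.39-fold higher in the C3G tumor (1.28 to 1.52), at 101 and 141 TPM. Snrpn makes a close relative of B, and is imprinted and known mainly from neurons. It stood at 8.55 and 11.97 TPM, a ratio of 1.40 (1.06 to 1.87) that rests on 80 and 142 reads. Snrpb held 11.8 times the level of Snrpn with DMSO and 11.7 times with C3G, a shift of 0.9945-fold (0.747 to 1.32) that lies within counting error. The genes of the 3 Sm D proteins were near 1, Snrpd1 at 129 and 123 TPM, Snrpd2 at 99.995 and 92.4 TPM and Snrpd3 at 69.4 and 64.6 TPM, and all 3 intervals held 1.

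The value of Snrpf carries a limit of its own. It is the shortest of the 52 genes, at 861 bases of exon, and 735 of these bases (85.4%) also lie in exons annotated on the opposite strand, in Ccdc38 and 4933408J17Rik. That left 126 bases that belong to Snrpf alone, and the library kit does not mark strand. Ccdc38 stood at 1.55 and 1.18 TPM and 4933408J17Rik at 0 and 0.0979 TPM. A pseudogene, Gm13092, shares 222 bases in a row with the Snrpf transcript and stood at 0.887 and 1.40 TPM. The handling of reads that fit more than 1 gene is not given in the sources used here, and its part in the Snrpf ratio was not tested.

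The U1 and U2 snRNPs carry proteins that no other snRNP has. The 2 U1 genes were higher in the C3G tumor: Snrpa, whose product grips a loop of U1 RNA, at 52.6 and 63.5 TPM (ratio 1.21, 1.10 to 1.33), and Snrpc, whose product steadies pairing at the intron start, at 15.95 and 19.9 TPM (ratio 1.25, 1.11 to 1.41). The 2 U2 genes were lower. Snrpa1 makes a leucine-rich repeat protein of the U2 snRNP and stood at 39.7 and 34.6 TPM, 1.15-fold lower (1.02 to 1.29). Snrpb2, whose product pairs with it on U2 RNA, was the most abundant of the 4 and stood at 86.5 and 76.1 TPM, 1.14-fold lower (1.05 to 1.24). None of the 4 passed 1.25-fold on the log2(TPM + 1) scale. The level of Snrpc is set over 6521 bases of merged exons, far more than its short coding sequence, which lowers its TPM relative to other genes without touching the ratio.

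SF3a and SF3b form the part of the U2 snRNP that clamps the branch point. Their 9 genes lay within a narrow band of levels, from 30.8 to 137 TPM with DMSO and from 32.6 to 151 TPM with C3G. The 2 most abundant traded rank. Sf3b1, the large scaffold that closes around the branch point and is often mutated in blood cancers (chromosome 1, 54985169 to 55027481), stood at 121 and 151 TPM, a ratio of 1.25 (1.21 to 1.29). Sf3b2, whose product contacts the RNA upstream of the branch point (chromosome 19, 5273932 to 5295455), stood at 137 and 108 TPM, 1.27-fold lower with C3G (1.21 to 1.32). Sf3b1 therefore stood at 0.884 times the level of Sf3b2 with DMSO and 1.395 times with C3G, a shift of 1.58-fold (1.495 to 1.67).

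Against the other large subunit, Sf3b3, the level of Sf3b1 was 3.74 times with DMSO and 3.86 times with C3G, a shift of 1.03-fold (0.961 to 1.11) within counting error. Sf3b3 itself was at 32.4 and 39.1 TPM, a ratio of 1.21 (1.13 to 1.29). Sf3a1, a subunit of SF3a, was at 30.8 and 34.9 TPM, and Sf3b6, whose product touches the branch point adenosine, at 81.6 and 89.7 TPM. Their intervals lay just above 1. The ratios of the remaining Sf3a2, Sf3a3, Sf3b4 and Sf3b5 ran from 0.97 for Sf3b5 to 1.07 for Sf3b4, and all 4 intervals held 1.

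**Figure D2:**
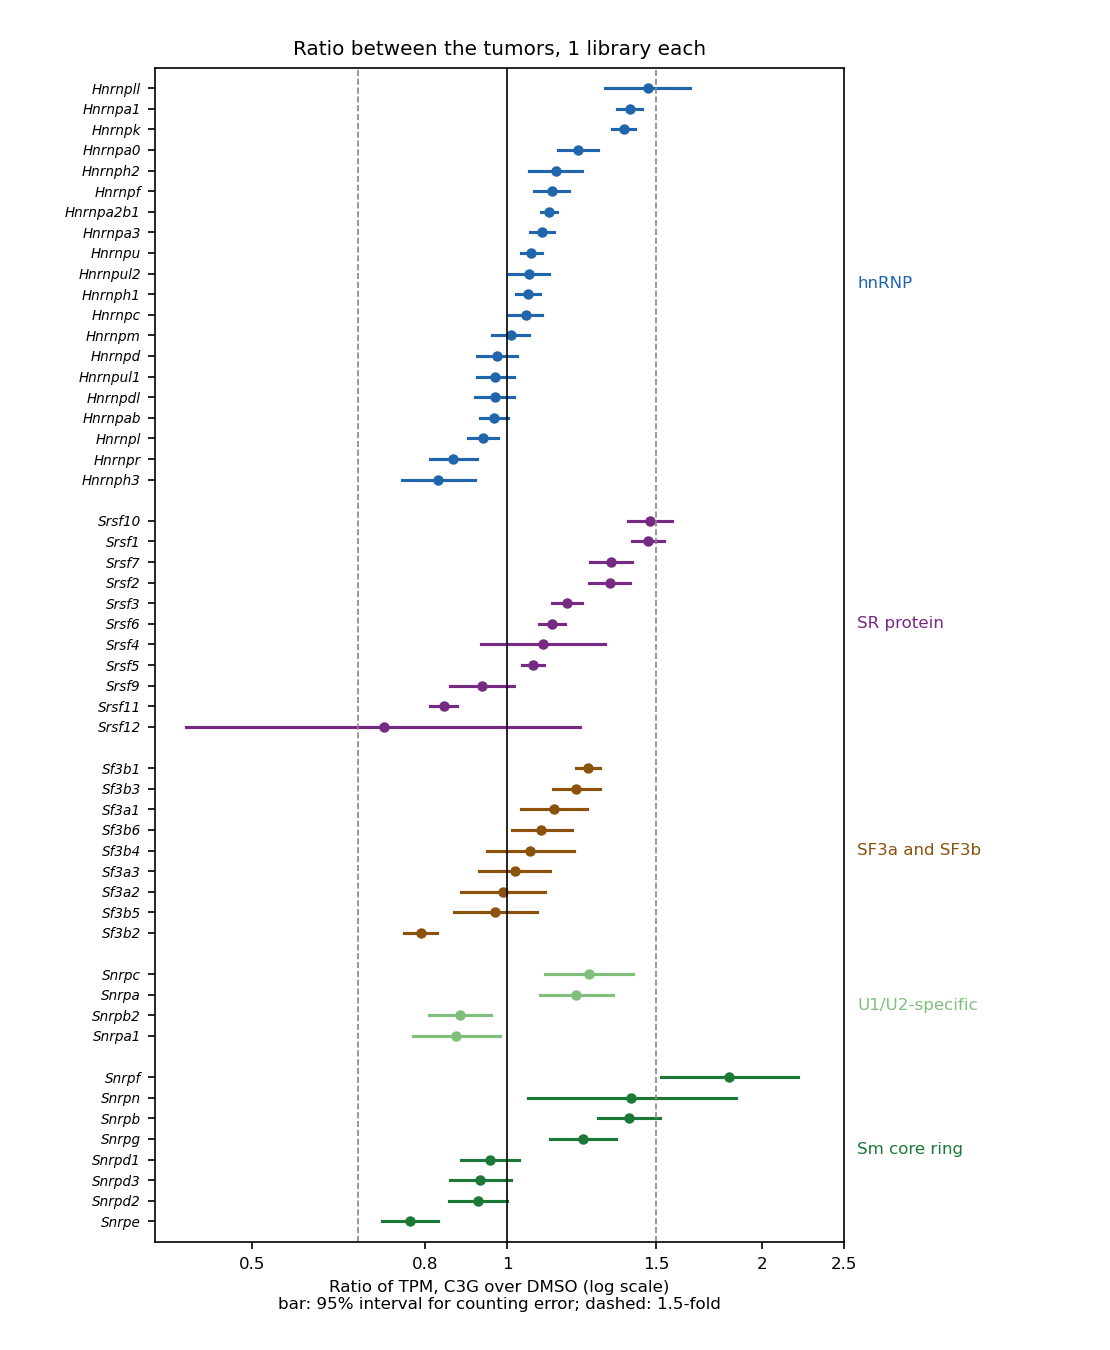
Ratio of TPM, C3G over DMSO, for each of the 52 genes on a log axis, by class; points are ratios and bars are 95% intervals for counting error, with dashed lines at 1.5-fold. Snrpf at 1.83 is the only point beyond a dashed line, and the widest bar belongs to Srsf12, which rests on 32 and 29 reads.

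Of the 11 SR protein genes, 8 stood above 0 and 3 below, with a median log2 ratio of 0.18, or 0.057 after centring. At 1.25-fold 4 of the 10 with at least 5 TPM were called, all higher in the C3G tumor, where 30.2% of all genes were: Srsf1, Srsf2, Srsf7 and Srsf10. After centring, the log2 ratios of Srsf2 (0.28) and Srsf7 (0.29) no longer reached 1.25-fold, and with the trends on length and GC content removed Srsf7 (0.32) just missed it. Srsf1, the founding SR protein (chromosome 11, 88047373 to 88053755), stood at 132 and 193 TPM, a ratio of 1.47 (1.41 to 1.53). Srsf10, known for blocking splicing when heat shock strips its phosphates (chromosome 4, 135855747 to 135869908), stood at 55.9 and 82.5 TPM, a ratio of 1.48 (1.39 to 1.57). Srsf2, an exon-binding factor mutated in myeloid cancers, stood at 155 and 204 TPM (ratio 1.32, 1.25 to 1.40), and Srsf7, which also escorts messenger RNA out of the nucleus, at 118 and 157 TPM (ratio 1.33, 1.25 to 1.41). Of the exon length of Srsf2, 25.3% is shared with exons of Mettl23 and Mfsd11 on the opposite strand, at 17.5 and 20.6 TPM and at 13.2 and 21.5 TPM.

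The promoters of these 4 genes are shown because they were the SR genes past 1.25-fold before centring. Each runs from 250 bases before to 50 bases after the RefSeq start, on the gene's own strand, in build GRCm38.p6. The RefSeq start of Srsf10 lies 324 bases inside the GENCODE start, and capitals mark every match, on either strand, to the CCAAT box (CCAAT), the GC box (GGGCGG), the E-box (CACGTG) and the TATA box (TATAAA).
Srsf1, chr11:88047123-88047422, plus strand: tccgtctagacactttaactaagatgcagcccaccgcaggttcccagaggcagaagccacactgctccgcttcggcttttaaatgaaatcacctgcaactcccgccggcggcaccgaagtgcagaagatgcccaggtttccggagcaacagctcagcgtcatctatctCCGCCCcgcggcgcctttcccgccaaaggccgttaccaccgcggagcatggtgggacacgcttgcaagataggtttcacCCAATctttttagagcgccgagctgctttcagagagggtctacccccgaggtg
Srsf2, chr11:116853045-116853344, minus strand: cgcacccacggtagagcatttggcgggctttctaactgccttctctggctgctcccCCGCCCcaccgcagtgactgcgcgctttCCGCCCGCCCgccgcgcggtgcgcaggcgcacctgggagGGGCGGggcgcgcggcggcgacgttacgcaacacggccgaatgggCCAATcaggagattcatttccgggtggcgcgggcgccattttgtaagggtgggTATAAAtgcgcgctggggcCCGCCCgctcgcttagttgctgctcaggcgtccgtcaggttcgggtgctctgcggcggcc
Srsf7, chr17:80207256-80207555, minus strand: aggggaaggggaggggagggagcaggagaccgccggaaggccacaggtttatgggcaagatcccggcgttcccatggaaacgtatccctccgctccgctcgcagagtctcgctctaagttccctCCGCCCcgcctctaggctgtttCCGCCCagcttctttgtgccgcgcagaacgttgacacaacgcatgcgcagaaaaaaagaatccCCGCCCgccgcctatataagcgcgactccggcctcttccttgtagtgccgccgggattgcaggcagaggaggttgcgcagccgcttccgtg
Srsf10, chr4:135855821-135856120, plus strand: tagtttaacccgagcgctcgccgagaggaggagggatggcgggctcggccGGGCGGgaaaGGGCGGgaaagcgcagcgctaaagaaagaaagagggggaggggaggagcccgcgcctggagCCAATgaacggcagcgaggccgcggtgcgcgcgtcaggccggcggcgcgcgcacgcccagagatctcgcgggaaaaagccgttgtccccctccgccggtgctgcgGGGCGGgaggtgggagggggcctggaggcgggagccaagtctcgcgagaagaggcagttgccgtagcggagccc
All 4 hold at least 1 GC box, with 1 match in Srsf1, 5 in Srsf2, 3 in Srsf7 and 3 in Srsf10. A CCAAT box is in Srsf1, Srsf2 and Srsf10, an exact match to TATAAA only in Srsf2, and an E-box in none of the 4. Variants of the TATA box were not searched for.

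Of the 52 genes 46 had a promoter in the RefSeq table. The share of these with each of the 4 motifs is given beside that over all genes, and no difference was tested. A GC box was in 32 of 46 (69.6%), against 63.9% of 10337 protein-coding genes with a mean of at least 1 TPM. A CCAAT box was in 21 (45.7%) against 38.8%, an E-box in 5 (10.9%) against 9.94%, and a TATA box in 6 (13.0%) against 7.26%. These are matches of letters within 300 bases, not sites of binding.

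The remaining SR genes differed less. Srsf5, the most abundant SR gene and known for its quick response to growth signals, stood at 441 and 473 TPM, a ratio of 1.07 (1.04 to 1.11). Srsf6 stood at 257 and 291 TPM (ratio 1.13), and Srsf3, the smallest SR protein, at 115 and 135 TPM (ratio 1.18). Srsf4 was at 15.6 and 17.2 TPM and Srsf9 at 134 and 126 TPM, and both intervals held 1. Srsf11, an SR-like protein that binds the U2 auxiliary factor (chromosome 3, 158010473 to 158036639), went the other way, at 151 and 127 TPM, 1.19-fold lower with C3G (1.15 to 1.23). Srsf12, a relative of Srsf10, was near the bottom of detection at 2.34 and 1.68 TPM. Srsf1 and Srsf9 are close in sequence and had nearly the same level with DMSO, where Srsf1 was at 0.980 times Srsf9, whereas with C3G it was at 1.54 times.

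The 20 hnRNP genes held most of the module's TPM, 3530 TPM with DMSO and 3939 TPM with C3G. Their median log2 ratio was 0.08, with 13 above and 7 below 0, and -0.035 after centring, with 8 above and 12 below. After centring, 48.5% of all genes stood above 0. The A and B group, which coats transcripts and often silences exons, held the top of the list. Hnrnpa2b1 (chromosome 6, 51460932 to 51469894) stood at 501 and 562 TPM, a ratio of 1.12 (1.10 to 1.15). Hnrnpa1 (chromosome 15, 103240432 to 103246692) stood at 405 and 565 TPM, a ratio of 1.40 (1.35 to 1.44). It was at 0.808 times the level of Hnrnpa2b1 with DMSO and at 1.005 times with C3G. Hnrnpa0 was at 191 and 232 TPM (ratio 1.21) and Hnrnpa3 at 266 and 292 TPM (ratio 1.10), while Hnrnpab, for a protein that also binds DNA, was at 385 and 372 TPM.

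Hnrnpk, which binds runs of cytosine (chromosome 13, 58391142 to 58403343), was the only other hnRNP gene above 100 TPM past 1.25-fold, at 216 and 298 TPM and a ratio of 1.37 (1.33 to 1.42). With the length and GC trends removed its log2 ratio of 0.32 just missed that fold. Hnrnpll, the hnRNP L relative known for switching CD45 splicing in lymphocytes (chromosome 17, 80029487 to 80062334), was the least abundant hnRNP gene. It stood at 9.07 and 13.3 TPM, a ratio of 1.47 (1.31 to 1.65). Of the T and natural killer cell genes, 12 of 12 measured stood below 0, where 41.1% of all genes did. Any link to the Hnrnpll ratio was not tested. Hnrnpl, the widely expressed relative, was at 170 and 159 TPM, so that it exceeded Hnrnpll 18.8 times with DMSO and 11.99 times with C3G.

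Among the lower hnRNP genes, Hnrnph3 (chromosome 10, 63014664 to 63024217) stood at 58.0 and 48.2 TPM, 1.21-fold lower with C3G (1.09 to 1.33). The other genes of its G-tract-binding group stood above 0, Hnrnpf at 225 and 254 TPM, Hnrnph1 at 259 and 274 TPM and Hnrnph2 at 67.0 and 76.6 TPM. Hnrnpr, a relative of Syncrip with roles in RNA transport (chromosome 4, 136310942 to 136359447), stood at 18.9 and 16.3 TPM, 1.16-fold lower (1.09 to 1.23). It has the longest merged exons of the module, 22199 bases, which lowers its TPM relative to other genes. Hnrnpd, known for hastening the decay of AU-rich messages, and its neighbour Hnrnpdl were at 75.3 and 73.2 TPM and at 120 and 116 TPM, and the ratio of the pair was 0.630 and 0.633. The remaining Hnrnpc, Hnrnpm, Hnrnpu, Hnrnpul1 and Hnrnpul2 had ratios from 0.97 to 1.07. Hnrnpc masks uridine tracts and Hnrnpu ties RNA to the nuclear scaffold.

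Gene length moves with the ratio in these libraries as a whole, with a smaller correlation among the few splicing genes. Over 12107 genes with a mean of at least 5 TPM the shortest eighth by merged exon length had a median log2 ratio of -0.20 and the longest one of 0.21, and Spearman's correlation across genes was 0.23. Across the 52 splicing genes it was 0.04, and whether that differs from 0.23 was not tested. Genes share their library and are not independent replicates, so both values are descriptions. Snrpf was the only member in the shortest eighth, where its log2 ratio of 0.86 stood against that median of -0.20. With the trends on length and GC content removed, Snrpf stood at 1.07, past 2-fold, and Snrpb at 0.60, past 1.5-fold. The SR protein median was then 0.072 and the hnRNP median -0.016.

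**Figure D3:**
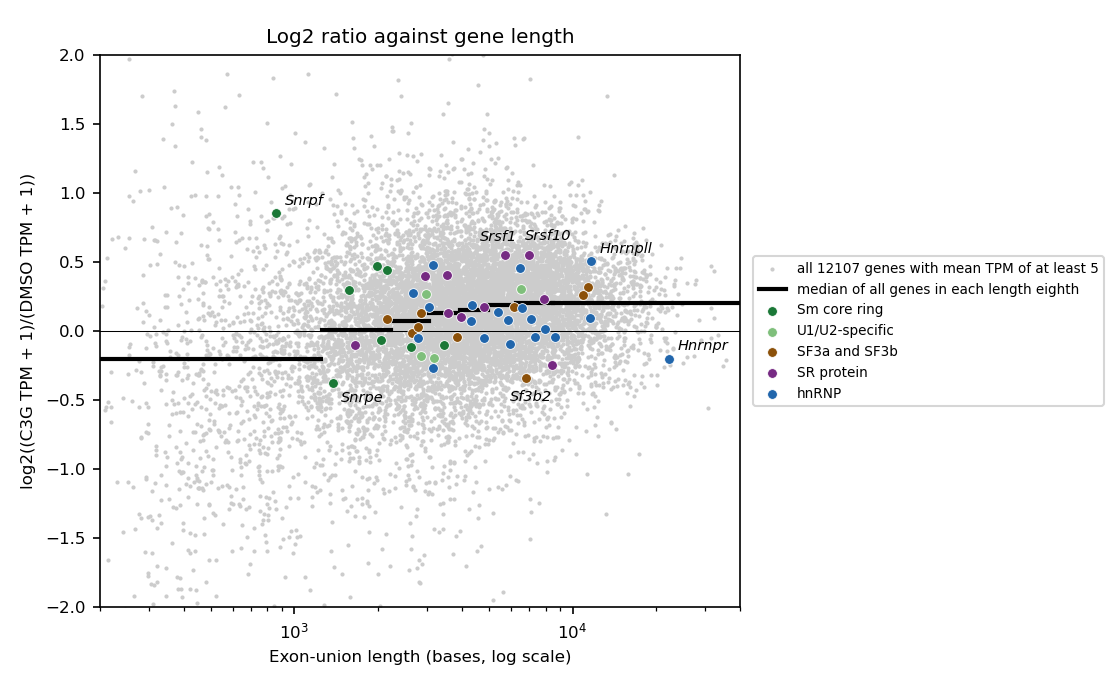
Log2 ratio against merged exon length (log axis) for 12107 genes with a mean of at least 5 TPM (grey; a few lie beyond the axes), with the median of each length eighth as black bars, and for the splicing genes by class (colored). The medians of all genes climb from -0.20 to 0.21 with length, and Snrpf, at 861 bases, lies far above its eighth.

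Splicing factor genes are known to limit their own protein by splicing in exons that mark the transcript for nonsense-mediated decay, and the annotation carries that feature. Transcripts of the decay type are annotated for 24 of the 52 genes (46.2%), against 27.6% of 13232 protein-coding genes with a mean of at least 1 TPM. By class it was 9 of 11 SR genes, 10 of 20 hnRNP genes, 1 of 9 SF3a and SF3b genes, 2 of 8 Sm ring genes and 2 of 4 U1 and U2 genes. Retained-intron transcripts are annotated for 38 of 52 (73.1%) against 57.0%. The deposited values are totals per gene, so productive and decay-bound transcripts cannot be told apart in them.

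Many of these genes have near-identical relatives elsewhere in the genome. For 18 of the 52, another annotated gene shares at least 200 aligned bases at 95% identity or more. Hnrnpa3 has 23 such copies, which together stood at 41.0 and 26.8 TPM (the longest, Gm5641, is identical to it over 1488 bases), and Hnrnpa1 has 9, at 15.8 TPM in both tumors. The 3 copies of Snrpg summed to 22.97 and 11.0 TPM, and the single copy of Snrpe, the pseudogene Snrpert, stood at 3.31 and 1.96 TPM with 177 bases in a row shared. The split of reads between these genes and their copies is uncertain. Of the 10 members called higher at 1.25-fold, 5 have no such copy: Hnrnpll, Snrpb, Srsf1, Srsf2 and Srsf7.

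Other splicing genes, in lists drawn up from what their proteins do, gave a mixed picture. No splicing list held a gene past 2-fold on the log2(TPM + 1) scale, where 7.4% of all genes were. For the counts that follow, 30.2% of all genes were higher and 16.5% lower at 1.25-fold. By sign, 58.9% of all genes stood above 0 and 41.1% below. Medians of 0.09 to 0.11 among these lists turned slightly negative after centring, between -0.0094 for the SR protein kinases and -0.033 for the late helicases. The kinases that phosphorylate SR proteins were the most even, with 8 of 8 measured genes above 0, a median log2 ratio of 0.11 and none called at 1.25-fold. Dyrk1a was at 21.02 and 24.0 TPM, Srpk2 at 18.6 and 21.1 TPM and Prpf4b at 46.8 and 52.2 TPM. SR-related proteins had a median of 0.09, with 2 of 16 called higher and 2 lower at 1.25-fold. Luc7l3, a partner of the U1 snRNP, was 1.58-fold lower at 172 and 109 TPM, Scaf4 stood at 29.0 and 19.9 TPM, and Tra2b, which promotes exon inclusion, stood at 51.7 and 72.6 TPM.

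Around the snRNPs, the helicase gene Dhx15, which takes spliceosomes apart, was at 29.2 and 49.5 TPM, a ratio of 1.70 (1.58 to 1.83). Htatsf1, a U2 partner that SF3b1 binds, was at 96.3 and 60.6 TPM, and Sf1, the first reader of the branch point, at 91.4 and 121 TPM. In that list of 16 U1 and U2 partners the median was -0.09, with 2 higher and 1 lower at 1.25-fold. The tri-snRNP list had a median of 0.10, with 4 of 18 higher and 4 lower, among them Sart1 at 66.6 and 40.1 TPM, Prpf3 at 23.9 and 16.6 TPM and Snu13 at 79.7 and 106 TPM. The 7 Lsm genes, whose products form the ring of U6 RNA that resembles the Sm ring, had a median of -0.06, and 1 was lower at 1.25-fold. That gene, Lsm6, stood at 36.4 and 28.1 TPM, with Lsm7 at 78.5 and 66.8 TPM and Lsm4 at 143 and 123 TPM.

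The minor spliceosome, which removes a rare class of introns, had the lowest median of these lists at -0.26, with 2 of 11 genes higher and 2 lower at 1.25-fold. Zcrb1 stood at 93.6 and 49.3 TPM, 1.90-fold lower (1.74 to 2.08), Zrsr1 at 16.9 and 11.3 TPM and Rnpc3 at 7.41 and 11.1 TPM. For the Prp19 and activation complexes the median was -0.09, with 2 of 20 higher and 5 lower, led by Cwc27 at 44.4 and 27.5 TPM, Prpf38b at 109 and 77.0 TPM and Prpf38a at 16.2 and 23.0 TPM. The exon junction complex list also held messenger RNA export genes, among them Thoc2 and Ddx39b. In that mixed list 10 of 11 were below 0 (41.1% of all genes), with a median of -0.11. Rbm8a, a core subunit of the exon junction complex, was the 1 called, at 161 and 109 TPM. Thoc2 stood at 61.6 and 49.7 TPM and Ddx39b at 237 and 203 TPM. Late helicases and debranching genes had a median of 0.09 with 2 of 6 higher, Tfip11 (17.6 and 24.7 TPM) and Gcfc2 (5.50 and 7.70 TPM).

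The SMN complex and its partners, which load Sm rings onto RNA, had a median of 0.10, with 2 of 13 higher and 1 lower. Phax, the export adaptor of snRNAs, was at 100.2 and 73.5 TPM, Gemin2 at 14.8 and 20.1 TPM and Gemin6 at 26.3 and 34.8 TPM. Nonsense-mediated decay genes had a median of 0.09, with 2 of 12 higher and 4 lower. The paralogs Upf3b and Upf3a stood at 131 and 84.6 TPM and at 23.5 and 15.7 TPM, and Smg8 at 10.2 and 15.4 TPM.

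The list of tissue-restricted and epithelial regulators had the highest median of these lists, 0.37, with 14 of 17 measured genes above 0. Its 25 genes included Rbfox1, Rbfox3, Nova1 and Nova2, which stayed under a mean of 1 TPM and did not enter the median of 0.37. That median was 0.25 after centring, 0.23 with the length and GC trends removed and 0.19 when the genes under 1 TPM were kept in. At 1.25-fold 8 of 16 were higher and 1 lower, against 30.2% and 16.5% of all genes. The widely expressed repressor Ptbp1 was at 78.3 and 123 TPM, a ratio of 1.57 (1.47 to 1.66), Mbnl2 at 31.3 and 54.7 TPM (ratio 1.75, 1.65 to 1.86), and Celf4, of a family best known in brain and muscle, at 7.07 and 3.22 TPM, a plain ratio of 0.456. The epithelial splicing regulators Esrp1 and Esrp2, named after their values were seen, were at 109 and 151 TPM and at 58.5 and 77.0 TPM. Genes of hnRNP-like proteins outside the naming rule had a median of 0.17, with 9 of 23 higher and 2 lower; Pcbp4 stood at 16.6 and 28.6 TPM, Fubp3 at 22.9 and 34.1 TPM and Pcbp3 at 10.3 and 6.70 TPM.

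**Figure D4:**
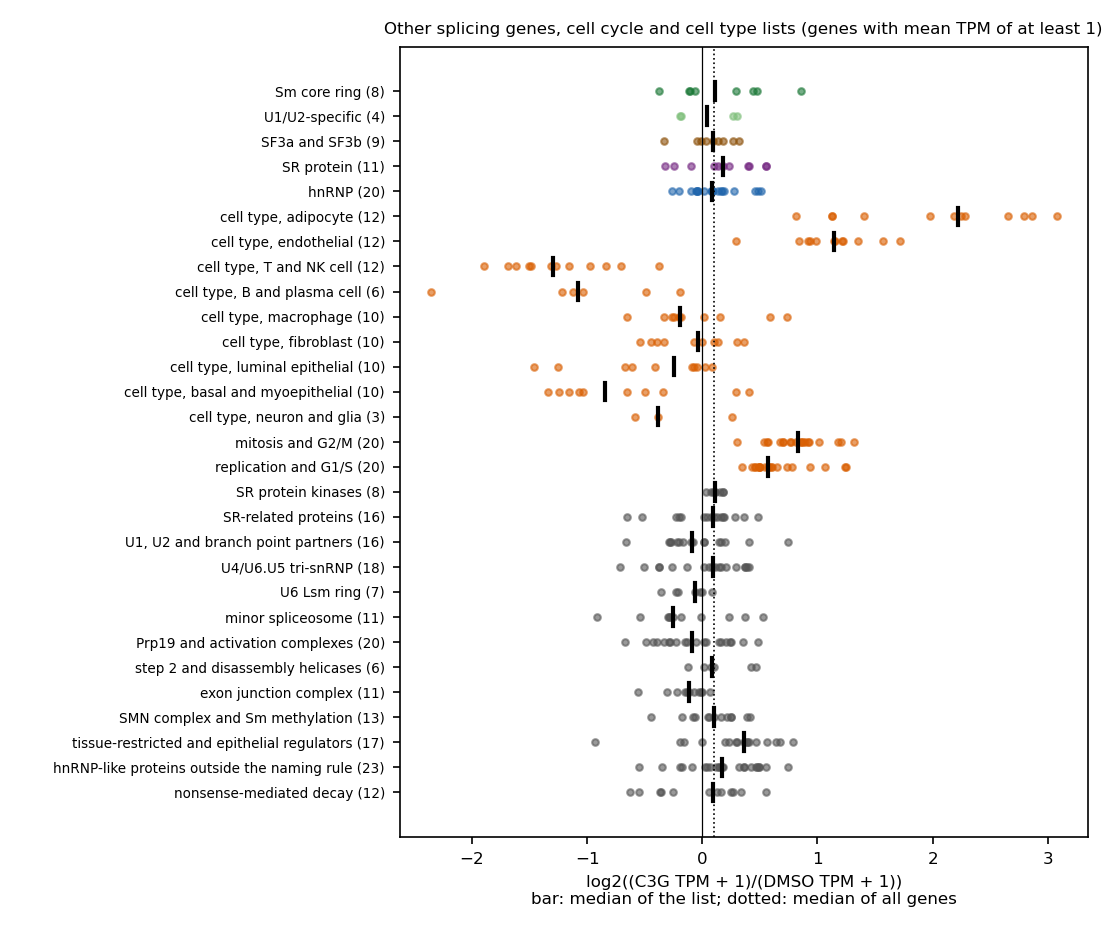
Log2 ratios of single genes (points) and their median (black bar) in the 5 classes of splicing genes, in the cell type and cell cycle lists (orange) and in the other splicing lists (grey), with the number of genes in parentheses; the dotted line is the median of all genes, 0.10. The 5 classes center near the dotted line, while adipocyte genes center at 2.22 and T and natural killer cell genes at -1.29.

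Markers of other cell types and cell cycle genes stood at other levels in the 2 libraries, and their part in the ratios above was not tested. Of all genes, 58.9% stood above 0 and 41.1% below. The adipocyte markers (12 of 12 above 0, median 2.22) summed to 278 TPM with DMSO and 1495 TPM with C3G, and the endothelial markers (12 of 12 above 0, median 1.145) to 50.4 and 122 TPM. T and natural killer cell markers (12 of 12 below 0) summed to 125 and 43.8 TPM, and B and plasma cell markers (6 of 6 below 0) to 137 and 64.5 TPM. Macrophage markers (6 of 10 below 0, median -0.20) summed to 1384 and 1174 TPM. Fibroblast markers (6 of 10 below 0, median -0.04) summed to 1573 and 1298 TPM. The luminal epithelial markers that define the tumor cells were high in both, summing to 7875 and 5689 TPM (8 of 10 below 0), and the basal markers to 1205 and 618 TPM (8 of 10 below 0). In the neuron and glia list Nefl and Syt1 were at 0 in both tumors, and 3 of 10 genes reached a mean of 1 TPM. All 20 mitosis and all 20 replication genes stood above 0, with medians of 0.84 and 0.57, against 0.10 for the splicing genes. Ribosomal RNA took 0.308% of reads with DMSO and 0.654% with C3G, and mitochondrially encoded genes 5.36% and 5.74%.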

How the data were processed

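The deposited table holds TPM values that the authors computed for 55536 Ensembl genes, 1 column per tumor. Per the submitters' processing notes, which give no roles, the build was mm10 and the software included Trimmomatic 0.38, featureCounts 2.0.0, MultiQC and FastQC; the aligner is not given in the sources used here. Per the labels' protocols, libraries were made with a TruSeq kit that does not mark strand. All identifiers matched GENCODE M21. In 100% of values above 0, TPM times merged exon length came out as whole multiples of the value of 1 read (tolerance 0.01 of it), which gave 12192275 reads (DMSO) and 16081110 (C3G). These reads gave exact conditional 95% intervals of ratios; intervals of a ratio between gene pairs used the log-scale normal approximation.

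Medians cover genes with a mean of at least 1 TPM. Genes described in full were the 6 highest and 6 lowest log2 ratios (mean of at least 5 TPM), all past a size rule and the most abundant of each class; for other lists, up to 3 genes farthest from 0 that reached 5 TPM. Members and lists were chosen with earlier results of these data known. Copies were found with BLAST 2.17.0; trends with statsmodels 0.14.6. The procedure was tested on simulated data. Alternatives were a pseudocount of 0.1 or 5, filters, centring, rescaling, trend removal and a minimum of 50 reads. The listed gene Cenatac was not matched by symbol, and Qki was matched as Qk.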

Additional observations from a re-analysis of the deposited data

How the results depend on the processing

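Counts of members past 2-fold and 1.5-fold and the medians of the module and its classes were recomputed under each alternative. A pseudocount of 0.1 or 5, no filter, a stricter filter, rescaling without mitochondrial and the 50 most abundant genes, and a minimum of 50 reads left these values within 1.5 times (counts) or within counting error (medians). Centring lowered the module's median from 0.10 to -0.021, the SR protein median to 0.057 and the hnRNP median to -0.035, and gave 4 members lower at 1.25-fold in place of 2, with Srsf11 and Hnrnph3 added, while Srsf2 and Srsf7 dropped out of the higher ones. With the length and GC trends removed, 1 member was higher past 2-fold and 2 past 1.5-fold, and the SR protein and hnRNP medians were 0.072 and -0.016. At 1.25-fold the counts stayed at 10 higher and 2 lower, but Hnrnpk (0.32), Srsf7 (0.32) and Snrpe (-0.27) lost their calls and Hnrnpa0 (0.36), Snrpg (0.42) and Srsf11 (-0.38) gained one. Without the members that have a near-identical copy, an alternative added after the data were seen, 0 members were past 1.5-fold, 5 were higher and 1 lower at 1.25-fold, and the median of the 2 remaining U1- and U2-specific genes was -0.19, fewer genes being tested by construction. No called member changed direction under these alternatives. The shares of all genes past each fold, given above, are before any of these alternatives, so these counts have no matching share beside them. No paired analysis was possible because each group has 1 library. Depth limits Srsf12, Snrpn and Snrpf most, at 32, 80 and 167 reads in the DMSO library.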
